A study of Rattus norvegicus with 12 samples.

Results

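The genes described here drive cell division and DNA replication. A list of 49 such genes was set against the deposited array values, and 45 of them were measured among 14506 genes: 9 of 9 that act at entry into the cycle from G1, 9 of 11 of S phase, 24 of 26 of G2 and mitosis, and 3 of 3 cell cycle inhibitors. Each gene is represented by a probe set paired with its symbol alone, and where there were several (Ccnb2, Rrm1 and Rrm2, with 2 each) by the one with the highest mean over the 12 arrays. The other probe set of those 3 genes differed from control in the same direction. Mcm3, Mcm4, Cenpf and Cenpe were not analysed here.

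The tissue was the ventral prostate of adult male Wistar rats, treated at 90 days of age and sampled 3 days later. The 12 arrays fall into 4 groups of 3. Control rats were intact and received corn oil, the vehicle of estradiol. Castrated rats had both testes removed, with ketamine at 150 mg/kg and xylazine at 10 mg/kg as anaesthetics. Estradiol-treated rats were intact and received 17β-estradiol in corn oil at 25 mg/kg. Rats of the combined group were castrated under the same anaesthesia and received the same dose of estradiol. The series describes the 3 procedures as ways of depriving the gland of androgen. The labels do not say whether rats that were only castrated received corn oil. Surgery and anaesthesia were listed for both castrated groups only, so their effects cannot be told apart from the loss of the testes. Nothing in the labels ties an array to one animal, and the p-values reflect only how far these samples differ among themselves, which may be technical.

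A cell enters the cycle when cyclin D with Cdk4 or Cdk6, and then cyclin E with Cdk2, release E2F factors that switch on genes of DNA replication. Genes of G2 and mitosis follow later, many of them through the promoter elements known as the CHR and the CCAAT box, and their products condense chromosomes, build the spindle, check its attachments and cut the cell apart. In the adult rat prostate few epithelial cells divide, and the gland shrinks when androgen is withdrawn.

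Promoter windows of the listed genes were searched for these elements. Windows of 300 bases (250 before and 50 from the annotated start of the gene, RefSeq, build GRCr8) were matched to 33 of the 45 genes. Those shown are the 4 mitosis genes with the smallest p in a test of any difference among the groups, of those that passed a comparison with control, and the 2 S phase genes with the smallest p in that test. Capitals mark the CHR (TTTGAA or TTCGAA), the CCAAT box (CCAAT) and the E2F element (TTTCCCGC, TTTCGCGC, TTTGCCGC or TTTGGCGC), each searched on both strands, so that an element on the other strand appears as its reverse complement.
Plk1 (chr1:186147408-186147707, plus strand): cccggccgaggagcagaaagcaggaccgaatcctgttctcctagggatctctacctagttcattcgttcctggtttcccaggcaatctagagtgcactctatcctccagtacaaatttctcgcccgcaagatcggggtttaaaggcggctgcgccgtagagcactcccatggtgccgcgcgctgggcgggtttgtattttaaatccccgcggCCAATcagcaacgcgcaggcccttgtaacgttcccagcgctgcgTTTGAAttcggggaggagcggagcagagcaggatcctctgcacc
Ect2 (chr2:111966577-111966876, minus strand): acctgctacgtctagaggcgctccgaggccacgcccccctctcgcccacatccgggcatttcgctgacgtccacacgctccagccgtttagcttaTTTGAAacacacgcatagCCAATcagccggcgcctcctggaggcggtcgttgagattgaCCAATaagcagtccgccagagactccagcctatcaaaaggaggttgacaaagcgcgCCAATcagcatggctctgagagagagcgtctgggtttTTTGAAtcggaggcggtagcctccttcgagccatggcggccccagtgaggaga
Bub1b (chr3:126016817-126017116, plus strand): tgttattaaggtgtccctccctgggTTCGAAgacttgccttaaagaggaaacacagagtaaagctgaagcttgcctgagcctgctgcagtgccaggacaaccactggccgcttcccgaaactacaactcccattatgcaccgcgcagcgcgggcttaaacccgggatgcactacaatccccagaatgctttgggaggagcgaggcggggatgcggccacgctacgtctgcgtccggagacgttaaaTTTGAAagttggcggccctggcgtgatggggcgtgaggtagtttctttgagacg
Ccnb1 (chr2:33655176-33655475, minus strand): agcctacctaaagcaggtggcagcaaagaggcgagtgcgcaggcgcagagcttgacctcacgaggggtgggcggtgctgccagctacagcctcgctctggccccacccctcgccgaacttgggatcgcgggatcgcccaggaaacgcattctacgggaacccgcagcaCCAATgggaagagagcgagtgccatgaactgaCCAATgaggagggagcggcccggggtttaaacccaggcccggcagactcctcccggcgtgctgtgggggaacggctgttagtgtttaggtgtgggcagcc
Tyms (chr9:120776034-120776333, minus strand): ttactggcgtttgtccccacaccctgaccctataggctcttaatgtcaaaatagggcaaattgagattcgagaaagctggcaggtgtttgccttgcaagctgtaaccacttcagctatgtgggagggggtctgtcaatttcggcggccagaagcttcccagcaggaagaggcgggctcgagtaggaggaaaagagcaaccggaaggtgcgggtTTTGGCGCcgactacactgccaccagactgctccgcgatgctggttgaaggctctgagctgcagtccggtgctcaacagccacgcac
Mcm2 (chr4:122918045-122918344, minus strand): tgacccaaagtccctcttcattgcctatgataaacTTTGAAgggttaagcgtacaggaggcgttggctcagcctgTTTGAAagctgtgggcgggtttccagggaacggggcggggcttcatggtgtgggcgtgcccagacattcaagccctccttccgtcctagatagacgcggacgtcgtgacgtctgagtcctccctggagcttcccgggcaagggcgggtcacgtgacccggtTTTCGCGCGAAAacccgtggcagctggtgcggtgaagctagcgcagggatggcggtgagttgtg

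In these windows Plk1 held 1 CHR and 1 CCAAT box, Ect2 held 2 CHRs and 3 CCAAT boxes, Bub1b held 2 CHRs, and Ccnb1 held 2 CCAAT boxes. The E2F element was present in Tyms and Mcm2, in Mcm2 as 2 matches on opposite strands that overlap, and the Mcm2 window also held 2 CHRs. Over the group, a CHR was found in 12 of 18 mitosis windows (66.7%), in 3 of 8 of S phase (37.5%), in 0 of 4 of G1 entry and in 1 of 3 inhibitors, against 19.7% of all 33469 windows. A CCAAT box was found in 14 of 18 mitosis windows (77.8%) and 5 of 8 of S phase, against 37.5% of all. Both together were found in 11 of 18 mitosis windows (61.1%) against 7.95% of all. The E2F element had the opposite distribution, in 5 of 8 S phase windows (62.5%) and 1 of 18 of mitosis (5.56%), against 2.14% of all. Mitosis genes that passed a comparison with control and those that passed none held a CHR in 6 of 9 windows each, a CCAAT box in 8 and 6 of 9, and the E2F element in 0 and 1 of 9. A match is a description of the letters only, and no match says only that they are not in this window.

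Values are on a scale taken as log2, so a difference of 1 is a 2-fold change, and levels are compared within a probe set only. Probasin (Pbsn), an androgen-dependent secretory protein of the prostate epithelium, was at 10.50 to 11.63 on the control arrays. Estradiol arrays 1 and 2 stand apart from the others: the SD over their probe sets was 1.93 and 2.01 against 2.24 to 2.30, and the dimmest 25% of genes by mean level averaged 4.15 and 4.05 there against 3.57 to 3.68. Those dim genes had a median difference of 0.32 between estradiol and control, against -0.05 for the rest, and 22 of the 24 mitosis genes lay below the median level of all genes (6 of them among the dimmest 25%). On the same 2 arrays the brightest 25% of genes averaged 8.43 and 8.82, against 9.06 to 9.15 on the others. The part of this in the falls after estradiol, such as those of Ccnd1 and Ccnd3, was not tested. For the comparisons with control and the interaction, counts of passing genes are therefore in most cases also given without these 2 arrays. Precision is limited by the 3 arrays per group, which gave a median SE of 0.19 for a difference between groups. In whole tissue, more cells of a type and more RNA per cell cannot be told apart.

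Castrated rats were compared with controls to see what loss of the testes did to the division genes. Mitosis genes rose: 9 of 24 passed (limma, adjusted p under 0.05 over all genes), none of them fell, and the median of the 24 was a log2 difference of 0.62, against 0.01 over all genes. The largest rises were in Top2a, the topoisomerase that untangles replicated DNA (2.69-fold, adjusted p = 0.0167), and Ccna2, the cyclin A of S phase and G2 (2.39-fold, adjusted p = 0.0195). Of the 9 S phase genes 0 passed, although 7 had an unadjusted p under 0.05, as had 16.1% of all genes, and their median was 0.51. One gene fell, Ccnd1, cyclin D1, 2.42-fold (adjusted p = 0.000868), and none of the other G1 genes nor the 3 inhibitors passed. In all, 10 of the 45 genes changed, 9 up and 1 down, where 5.54% of all genes changed, 3.17% up and 2.36% down.

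Besides Top2a and Ccna2, the mitosis genes that rose after castration were Ect2 (1.15 ± 0.22, log2 difference ± SE), Plk1 (1.12 ± 0.21), Tpx2 (1.02 ± 0.23), Bub1b (0.80 ± 0.17), Ccnb1 (0.78 ± 0.19), Ccnb2 (0.76 ± 0.19) and the spindle motor Kif11 (0.65 ± 0.17). Their adjusted p-values lay between 0.00613 (Plk1) and 0.0446 (Kif11). Just outside the threshold were Bub1 (1.41) and Tyms (0.61), each with an adjusted p of 0.0502, and Aurkb (0.53, adjusted p = 0.0531). The castrated arrays lay above all controls for 18 of 24 mitosis genes and 7 of 9 S phase genes, against 18.8% of all genes, and below them for 3 of 9 genes of G1 entry, against 13.7%. The count of 10 rested on the arrays in the fit. Leaving out control 1, 2 or 3 gave 5, 3 and 5, leaving out castrated 2 or 3 gave 5 and 4, and leaving out estradiol 1 gave 17. It was 21 (19 up, 2 down) without estradiol 1 and 2, when 16.6% of all genes passed.

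**Figure D1:**
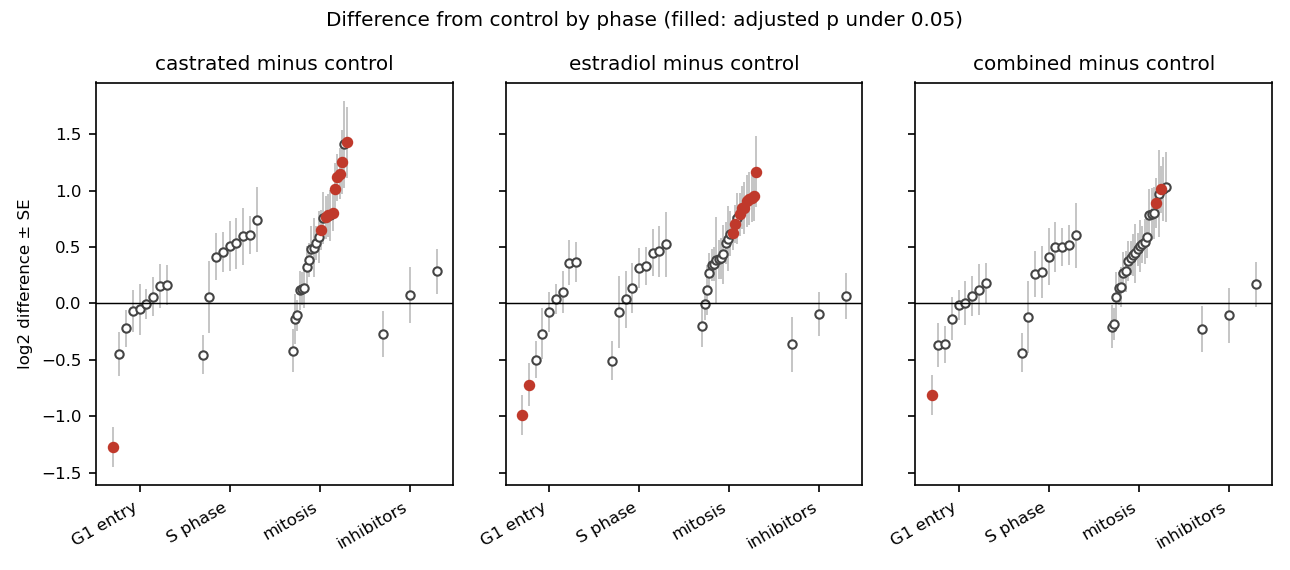
Log2 difference from control (y axis, ± SE) of each of the 45 genes, placed by phase on the x axis and ordered by size within a phase, in the 3 comparisons with control; filled points have an adjusted p under 0.05. Filled points above 0 are all mitosis genes (9, 10 and 2 from left to right), and those below 0 are D-type cyclins.

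Estradiol given to intact rats was compared with control for the same question. Here too mitosis genes rose, 10 of 24, with a median of 0.60 against 0.07 over all genes (0.48 with centred arrays and 0.40 after quantile normalization), and again 0 of 9 S phase genes passed (limma; 2 had an unadjusted p under 0.05, as had 30.2% of all genes, median 0.31). The rises were in Top2a (1.17 ± 0.31), Ect2 (0.96 ± 0.22), Plk1 (0.93 ± 0.21), Kif20a, a kinesin of the late spindle (0.93 ± 0.23), Tpx2 (0.91 ± 0.23), Ccnb1 (0.85 ± 0.19), Prc1, which bundles the microtubules of the spindle midzone (0.85 ± 0.23), Ccnb2 (0.79 ± 0.19), Bub1b (0.70 ± 0.17) and Aurkb, the kinase of the chromosomal passenger complex (0.62 ± 0.15). Cyclins D1 and D3 fell, Ccnd1 by 0.99 and Ccnd3 by 0.72. In all 12 genes changed, 10 up and 2 down, against 7.99% of all genes (2.51% up, 5.48% down). The estradiol arrays lay above all controls for 15 of 24 mitosis genes, against 12.3% of all genes, and below them for 3 of 9 genes of G1 entry, against 15.1%. Centring each array on its median gave 8, of which 5 rose and 3 fell. Without control 1 or control 2 only Ccnd1 passed (1 gene, and 0 rises each), without control 3 it was joined by 1 rise, and without estradiol 1 the count was 7 (6 up, 1 down). Without estradiol 1 and 2 together, which leaves 1 array whose spread is taken from the other groups, 12 genes passed, all of them rises, against 5.05% of all genes (2.78% up, 2.27% down). Of the 12 genes of the full fit, Top2a, Plk1, Bub1b, Kif20a, Tpx2 and Ect2 passed there as well, and Ccnb1 (adjusted p = 0.0541), Aurkb (0.0625), Prc1 (0.126), Ccnb2 (0.162), Ccnd1 and Ccnd3 did not. Of the 3 arrays, estradiol 3, whose spread was like that of the other groups, differed from the control mean by a median of 0.81 over the mitosis genes, and estradiol 1 and 2 by 0.84 and 0.33. Mitosis genes above all controls numbered 20, 17 and 20 of 24 on arrays 1, 2 and 3, against 49.8%, 41.6% and 34.8% of all genes.

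**Figure D2:**
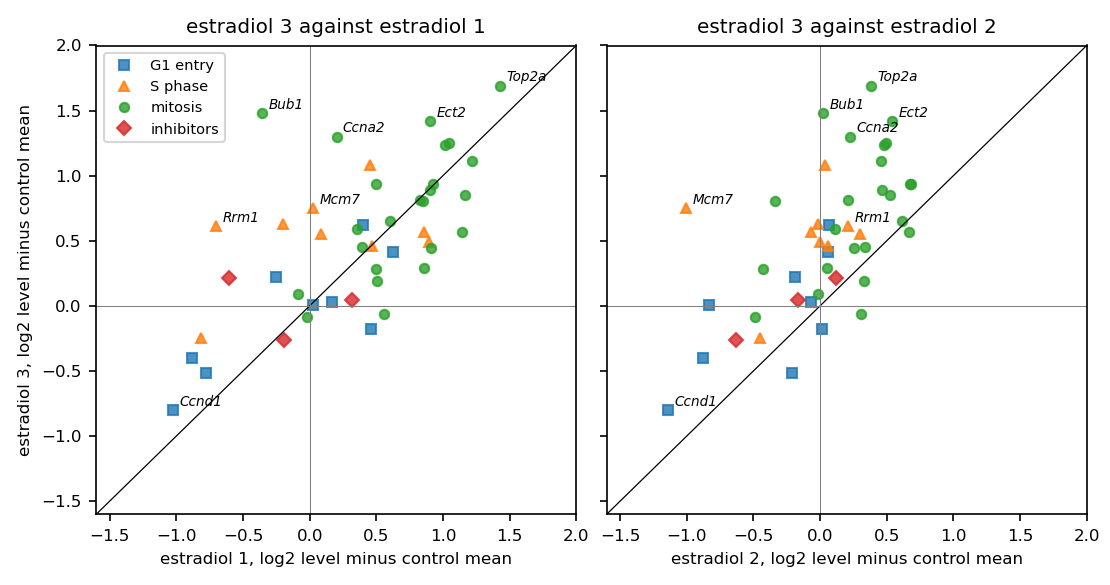
Log2 level minus the mean of the 3 controls for each of the 45 genes on estradiol array 3 (y axis) against array 1 (left) and array 2 (right), with the line of equality; marker shapes give the phase. Bub1, Ccna2 and Rrm1 were higher on array 3 than on array 1, and Top2a and Ect2 lie above the line of equality in both panels.

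The combined group was compared with control to see the effect of both treatments. Plk1 (1.01 ± 0.21, adjusted p = 0.0124) and Ect2 (0.89 ± 0.22, adjusted p = 0.0404) rose and Ccnd1 fell by 0.81 (adjusted p = 0.0185), which is 3 of 45 genes (2 up, 1 down) against 4.32% of all genes (2.12% up, 2.21% down). The mitosis genes had a median of 0.49 against 0.04 over all genes. Top2a (1.03, adjusted p = 0.0898) and Ccna2 (1.02, adjusted p = 0.0655) had differences as large as Plk1 with wider errors. Combined arrays lay above all controls for 18 of 24 mitosis genes and 4 of 9 S phase genes, against 21.1% of all genes, and below them for 3 of 9 genes of G1 entry, against 15.8%. Of the S phase genes 0 passed by limma, and 4 had an unadjusted p under 0.05, as had 14.7% of all genes. Centring on the array median, or quantile normalization, left 2 genes, 1 up and 1 down. The count was 1, 0 and 0 without control 1, 2 or 3, 1 without any one of the combined arrays, and 9, 6 and 5 without estradiol 1, 2 or 3. Without estradiol 1 and 2 together it was 19 (17 up, 2 down), against 14.5% of all genes.

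The comparisons with control share the same 3 control arrays, so their likeness is not independent. Plk1, Ect2 and Ccnd1 passed in all 3 of them, and 14 genes passed in at least 1 (2 of G1 entry and 12 of mitosis). The shares of all genes that did so were not computed, so these counts do not describe the listed genes alone. A single test of any difference among the 4 groups (moderated F) was passed by 7 of 45 genes (1 of G1 entry, 6 of mitosis), against 5.47% of all genes. That count was 1 without any one of the controls, between 2 and 4 without any one castrated or combined array, and 18 without estradiol 3. All 9 treated arrays lay above all 3 controls for 13 genes, each of them a mitosis gene: Top2a, Ccnb1, Ccnb2, Cdk1, Plk1, Aurkb, Bub1b, Kif20a, Kif11, Kif23, Tpx2, Nusap1 and Ect2. That pattern was found in 4.63% of all genes. All 9 lay below the controls for Ccnd1, Ccnd3, Cdk6 and Mcm2, a pattern of 7.27% of all genes.

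**Figure D3:**
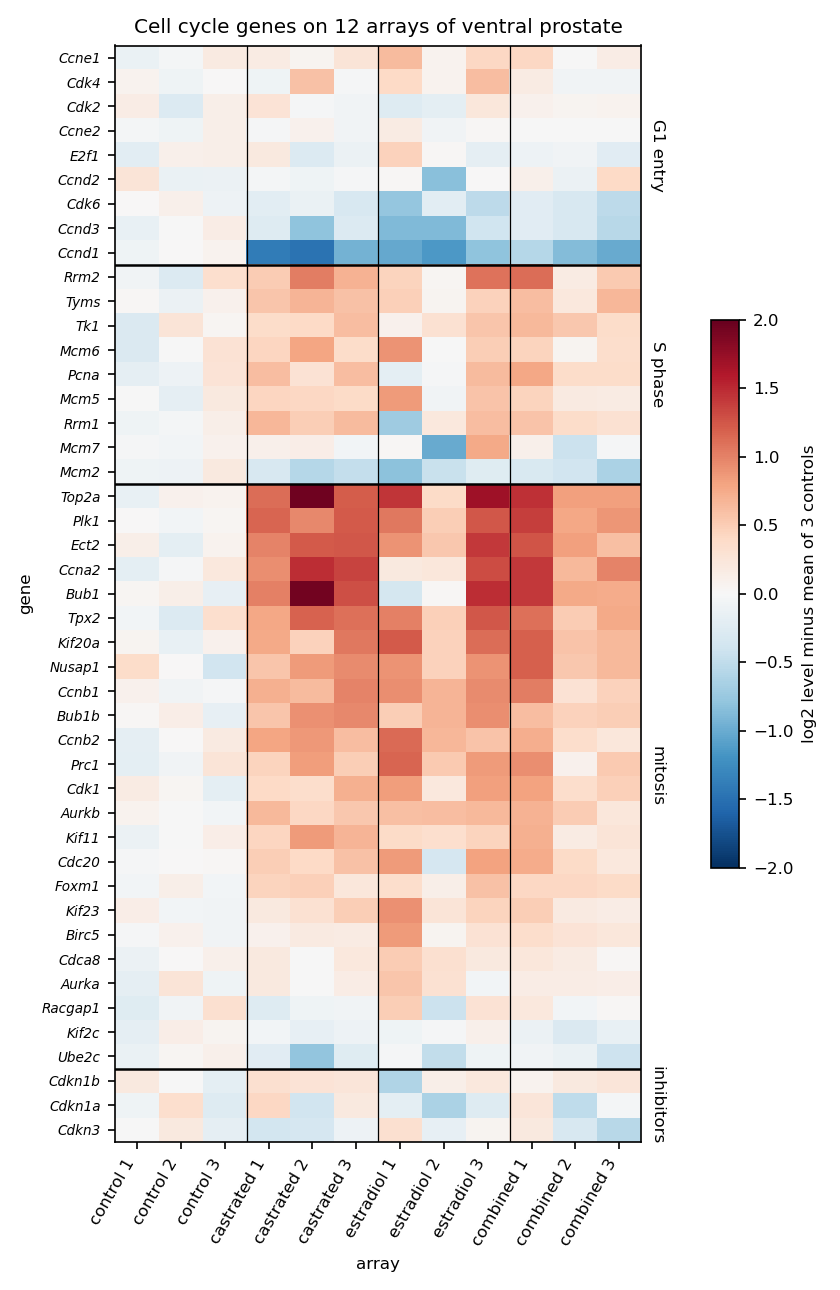
Log2 level minus the mean of the 3 controls (colour, from -2 to 2) for 45 genes (rows, grouped by phase) on each of the 12 arrays (columns). The block of mitosis genes is red on most treated arrays, more weakly on estradiol 2, combined 2 and combined 3, and the Ccnd1 row is blue on all 9 treated arrays.

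The kinases and cyclins that start mitosis were followed array by array. Plk1, the kinase that matures centrosomes and helps to trigger entry into mitosis, was at 5.14, 5.07 and 5.16 in controls, 6.29, 6.08 and 6.35 in castrated, 6.17, 5.62 and 6.37 in estradiol-treated, and 6.50, 5.89 and 6.01 in combined-treated rats. Every treated array was above every control, and estradiol 2 was the lowest of the treated arrays. Plk1 rose 2.17-fold after castration, 1.91-fold after estradiol (adjusted p = 0.0168) and 2.02-fold after both. Its call after castration held in all 22 alternatives. After both treatments it was lost without control 2 (adjusted p = 0.0675), control 3 (0.0518) or combined 1 (0.0816), where the log2 difference was 0.83 to 1.03.

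Ccnb1, cyclin B1, the partner of Cdk1 in the complex that drives mitosis, was at 4.54, 4.38 and 4.44 in controls, 5.16, 5.09 and 5.45 in castrated, 5.38, 5.13 and 5.39 in estradiol-treated, and 5.48, 4.74 and 4.91 in combined-treated rats. The treated arrays did not overlap the controls, and combined 1 was the highest of all. The rise was 0.78 after castration (adjusted p = 0.0278) and 0.85 after estradiol (adjusted p = 0.0173), and the difference after both was 0.59 (adjusted p = 0.112). Leaving out any one control, castrated 1 or castrated 3 ended the call after castration (adjusted p 0.0705 to 0.133). Cdk1 itself did not pass, with differences of 0.49, 0.62 and 0.55 in the 3 comparisons. Ccna2 was higher on all castrated arrays (5.34, 5.88 and 5.75) than on the controls (4.21, 4.38 and 4.61), while estradiol 1 and 2 (4.60 and 4.62) lay within or at the edge of the control range and estradiol 3 was at 5.70.

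Top2a was at 4.82, 5.05 and 5.03 in controls, 6.09, 6.91 and 6.18 in castrated, 6.40, 5.35 and 6.66 in estradiol-treated, and 6.42, 5.78 and 5.79 in combined-treated rats. The groups did not overlap the controls, and castrated 2 was the highest array while estradiol 2 was the lowest treated one. Its call after castration was lost without any one of the controls or without castrated 2 (adjusted p 0.0578 to 0.0766), with the difference between 1.17 and 1.47. After estradiol the rise was 1.17 (adjusted p = 0.0392), a call that held in 9 of 22 alternatives and was lost, among others, with centred arrays, quantile normalization, array quality weights or without any one control. The difference ranged from 0.70 to 1.69 over these alternatives, the highest on estradiol 3 alone (adjusted p = 0.0120).

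The spindle checkpoint holds back the separation of chromosomes until all are attached. Bub1b, a checkpoint protein also called BubR1, was at 3.39, 3.50 and 3.21 in controls, 3.92, 4.28 and 4.32 in castrated, 3.87, 4.04 and 4.30 in estradiol-treated, and 3.98, 3.83 and 3.87 in combined-treated rats. All treated arrays were above the controls, and the gene was among the dimmest 25% by mean level. The rise was 0.80 after castration (adjusted p = 0.0113) and 0.70 after estradiol (adjusted p = 0.0221), and the difference was 0.52 after both (adjusted p = 0.104). The call after castration was lost without control 3 (adjusted p = 0.0702) or castrated 3 (0.0642). Bub1, the checkpoint kinase, also among the dimmest 25%, was at 4.03, 4.11 and 3.82 in controls and 4.99, 5.92 and 5.28 in castrated rats. In the estradiol group arrays 1 and 2 (3.63 and 4.01) lay below or within the controls and array 3 (5.47) far above them. Its SE of 0.39 was the widest among these genes in comparisons with control, and without estradiol 1 and 2 it passed after estradiol (1.48, adjusted p = 0.0267).

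Tpx2, which activates Aurora A on the spindle, was at 4.63, 4.41 and 5.03 in controls, 5.46, 5.87 and 5.79 in castrated, 5.70, 5.17 and 5.92 in estradiol-treated, and 5.79, 5.20 and 5.44 in combined-treated rats. All treated arrays were above all controls, with control 3 closest to them. The rise was 2.02-fold after castration (adjusted p = 0.0198) and 1.88-fold after estradiol (adjusted p = 0.0316), and the difference after both was 0.79 (adjusted p = 0.0786). The call after castration was lost without control 1 or 2, or castrated 2 or 3 (adjusted p 0.0763 to 0.115). Aurka, the kinase that Tpx2 activates, had differences of 0.12, 0.27 and 0.14 that did not pass.

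Ect2, the exchange factor that switches on RhoA to form the cleavage furrow, was at 4.02, 3.71 and 3.97 in controls, 4.89, 5.12 and 5.15 in castrated, 4.81, 4.44 and 5.32 in estradiol-treated, and 5.15, 4.72 and 4.50 in combined-treated rats. The treated arrays did not overlap the controls in any group. The rise was 2.22-fold after castration (adjusted p = 0.00834), 1.94-fold after estradiol (adjusted p = 0.0219) and 1.85-fold after both. The call after castration was lost only without control 2 (1.06, adjusted p = 0.0537), among 21 alternatives. The call after both held in 9 of 21 and was lost without any one control, castrated or combined array (adjusted p 0.0541 to 0.212). Racgap1, the partner of Ect2 at the spindle midzone, differed from control by -0.14, 0.12 and 0.06 and did not pass, and each of these differences changed sign under at least 1 alternative.

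The remaining mitosis genes were not uniform. Ube2c, the ubiquitin-conjugating enzyme of the anaphase-promoting complex, was lower on the castrated arrays (6.79, 6.23 and 6.76) than in controls (6.87, 7.04 and 7.12), by 0.42 on average, which did not pass (adjusted p = 0.295). Kif2c, a kinesin that takes microtubules apart at centromeres, differed by -0.11 after castration and -0.18 after both. Foxm1, the transcription factor that drives many genes of this phase, differed by 0.38, 0.35 and 0.40, and Birc5, the survivin of the chromosomal passenger complex, by 0.14, 0.40 and 0.29. Nusap1, a microtubule-binding protein of the spindle, differed by 0.78, 0.75 and 0.79, Cdc20, the activator of the anaphase-promoting complex, by 0.49, 0.44 and 0.45, the kinesin Kif23 by 0.33, 0.54 and 0.27, and Cdca8, a subunit of the chromosomal passenger complex, by 0.13, 0.34 and 0.14. None of these passed. The control mean was the lowest of the 4 group means in 21 of 24 mitosis genes, a pattern whose share over all genes was not computed.

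**Figure D4:**
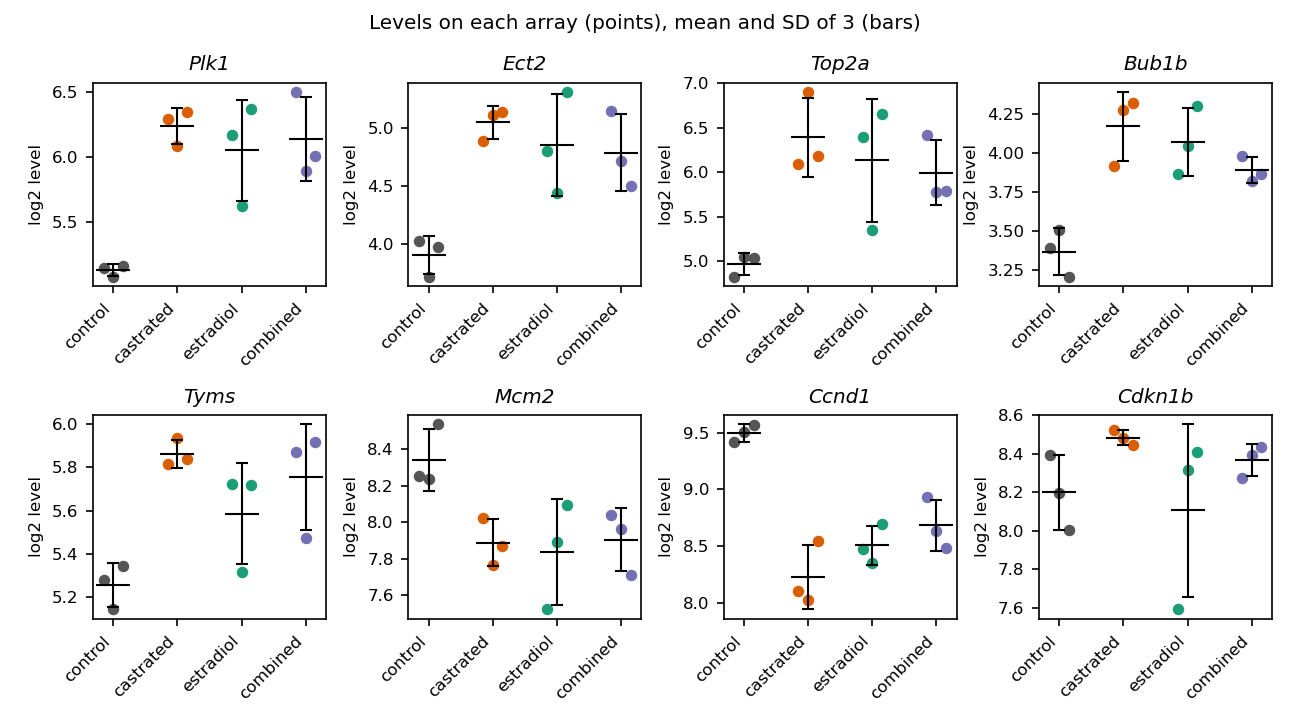
Log2 level (y axis, scaled per gene and not starting at 0) on each of the 12 arrays (points) by group (x axis), with the mean and SD of 3 arrays, for 8 genes. Plk1, Ect2, Top2a and Bub1b are higher on every treated array than on every control, Mcm2 and Ccnd1 lower, and the Tyms and Cdkn1b points overlap in at least 1 comparison.

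Of the S phase genes 0 of 9 passed any comparison with control. Tyms, thymidylate synthase, which makes the nucleotide thymidylate, came closest: it was at 5.28, 5.14 and 5.34 in controls, 5.81, 5.94 and 5.84 in castrated, 5.72, 5.32 and 5.72 in estradiol-treated, and 5.87, 5.47 and 5.92 in combined-treated rats. Castrated and combined arrays lay above the controls, and estradiol 2 lay within them. The differences were 0.61, 0.33 (adjusted p = 0.192) and 0.50 (adjusted p = 0.129). Rrm2 and Rrm1, the subunits of ribonucleotide reductase, differed by 0.74 and 0.60 after castration, Pcna, the sliding clamp, by 0.51, and Tk1, thymidine kinase, by 0.46.

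The subunits of the MCM helicase, which opens DNA ahead of the fork, did not move as one. Mcm2 was at 8.25, 8.23 and 8.54 in controls, 8.02, 7.77 and 7.87 in castrated, 7.52, 7.89 and 8.09 in estradiol-treated, and 8.04, 7.96 and 7.71 in combined-treated rats. All treated arrays were below all controls, by 0.45, 0.51 and 0.44 on average, and none of these differences passed (adjusted p = 0.187, 0.0840 and 0.235). Mcm5 and Mcm6 differed by 0.41 and 0.53 after castration in the other direction, and Mcm7 by 0.06. Mcm7 spread most within the estradiol group, at 6.59, 5.56 and 7.32. Without estradiol 1 and 2, S phase genes passed as well: after castration 3 of 9 rose and 1 fell (10.0% of all genes rose and 6.60% fell in that fit), after estradiol 2 rose (2.78% of all), and after both 3 rose and 1 fell (7.61% and 6.90% of all).

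Among the 9 genes of G1 entry, Ccnd1 fell in all 3 comparisons with control, Ccnd3 after estradiol only, and the other 7 passed none. Ccnd1, cyclin D1, was at 9.42, 9.51 and 9.57 in controls, 8.11, 8.02 and 8.55 in castrated, 8.47, 8.36 and 8.70 in estradiol-treated, and 8.93, 8.63 and 8.49 in combined-treated rats. No treated array reached the lowest control. The fall was 2.42-fold after castration, 1.98-fold after estradiol (adjusted p = 0.00502) and 1.76-fold after both (adjusted p = 0.0185). The call after castration held in all 22 alternatives. After estradiol it was lost without estradiol 1 and 2 together (-0.80, adjusted p = 0.0613). After both treatments it was lost without any one control, or without combined 2 or 3 (adjusted p 0.0511 to 0.116).

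Ccnd3, cyclin D3, was at 8.65, 8.79 and 8.95 in controls, 8.54, 8.0 and 8.52 in castrated, 7.92, 7.92 and 8.39 in estradiol-treated, and 8.57, 8.47 and 8.24 in combined-treated rats. All treated arrays lay below the controls, closest on combined 1. It fell after estradiol by 0.72 (adjusted p = 0.0383), a call that held in 8 of 22 alternatives and was -0.40 (adjusted p = 0.399) without estradiol 1 and 2. The differences of -0.45 after castration and -0.37 after both did not pass. Cdk6, a partner of the D cyclins, lay below the controls on all treated arrays without passing (-0.22, -0.50 and -0.36). Ccnd2, Ccne1, Ccne2, Cdk2, Cdk4 and E2f1 overlapped the controls in every comparison, with differences between -0.27 and 0.37.

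The inhibitors showed no call in any comparison by limma, and none had an unadjusted p under 0.05 against control. Cdkn1a, the p21 inhibitor of cyclin-dependent kinases, was at 7.84, 8.25 and 7.66 in controls, 8.33, 7.54 and 8.11 in castrated, 7.72, 7.28 and 7.66 in estradiol-treated, and 8.16, 7.41 and 7.87 in combined-treated rats. Its groups overlapped, with a 95% interval of -0.45 to 0.60 for castrated minus control. Cdkn1b, the p27 inhibitor, was at 8.40, 8.20 and 8.0 in controls, 8.52, 8.48 and 8.45 in castrated, 7.59, 8.32 and 8.41 in estradiol-treated, and 8.28, 8.39 and 8.43 in combined-treated rats. The castrated arrays lay above the controls by 0.28 on average (95% interval -0.14 to 0.71), and the other groups overlapped them. Cdkn3, a phosphatase that acts on Cdk1 and Cdk2, was at 5.03, 5.22 and 4.84 in controls, 4.67, 4.69 and 4.93 in castrated, 5.35, 4.86 and 5.08 in estradiol-treated, and 5.23, 4.71 and 4.47 in combined-treated rats, and its groups overlapped.

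The treated groups were compared with each other to see whether the treatments differed in their effect on the division genes. None of the 45 genes passed for combined minus castrated, combined minus estradiol or estradiol minus castrated (limma), where 1, 0 and 3 had an unadjusted p under 0.05. Of all 14506 genes 0% passed as well, and 153, 2742 and 3956 (1.05%, 18.9% and 27.3%) had an unadjusted p under 0.05. The largest difference among mitosis genes was Bub1 for estradiol minus castrated, -1.03 (95% interval -1.86 to -0.20, adjusted p = 0.150). For Plk1 the interval was -0.55 to 0.34 for combined minus castrated, -0.36 to 0.53 for combined minus estradiol, and -0.63 to 0.26 for estradiol minus castrated. Without estradiol 3, which leaves the estradiol group as the 2 arrays that stand apart, 4 genes passed as higher in the combined than in the estradiol group, and 4 as lower in the estradiol than in the castrated group, when 28.6% and 37.3% of all genes passed in either direction.

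The 4 groups form a layout of castration with and without estradiol, and the interaction asks whether estradiol acted differently in castrated and in intact rats. Ccnd1 passed this test (1 of 45 genes, against 1.10% of all). It fell by 0.99 after estradiol in intact rats, while in castrated rats combined minus castrated was 0.46 (adjusted p = 1.0), a difference of 1.45 ± 0.25 (adjusted p = 0.0144). The call was lost without control 2 (1.44, adjusted p = 0.0519), control 3 (1.41, 0.0542) or combined 1 (1.32, 0.0541). For the mitosis genes the interaction had a median of -0.71, against -0.06 over all genes. It was negative in 22 of 24 (medians of -0.65 with centred arrays and -0.59 after quantile normalization), that is, castration and estradiol together gave less than the sum of their separate differences. None of the mitosis genes passed in the full fit, although 13 had an unadjusted p under 0.05, as had 14.2% of all genes. The smallest adjusted p-values were those of Bub1b (-0.99, 0.0703), Ccnb2 (-1.12, 0.0713), Ccnb1 (-1.04, 0.0949) and Ect2 (-1.22, 0.0971). Without estradiol 1 and 2 the estradiol group is estradiol 3 alone. Its mitosis genes averaged 0.76 above the control mean, against 0.68 and 0.27 on arrays 1 and 2. The interaction then had a median of -0.87 and was negative in 22 of 24 mitosis genes. Among these were Top2a (-2.09), Bub1 (-1.92), Ect2 (-1.68), Ccna2 (-1.54), Tpx2 (-1.46), Plk1 (-1.35) and Bub1b (-1.22).

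Arrays of one group differed in how far the mitosis genes stood above control. The mean of the 24 genes lay above the control mean by 0.51, 0.63 and 0.66 on the castrated arrays, by 0.68, 0.27 and 0.76 on the estradiol arrays, and by 0.76, 0.36 and 0.39 on the combined arrays. Combined 1 was the highest of its group in 23 of 24 mitosis genes and 8 of 9 S phase genes, and estradiol 2 was the lowest of its group in 16 of 24 and the highest in none. For S phase genes the arrays of the castrated group lay closest together, 0.37, 0.40 and 0.38 above the control mean.

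**Figure D5:**
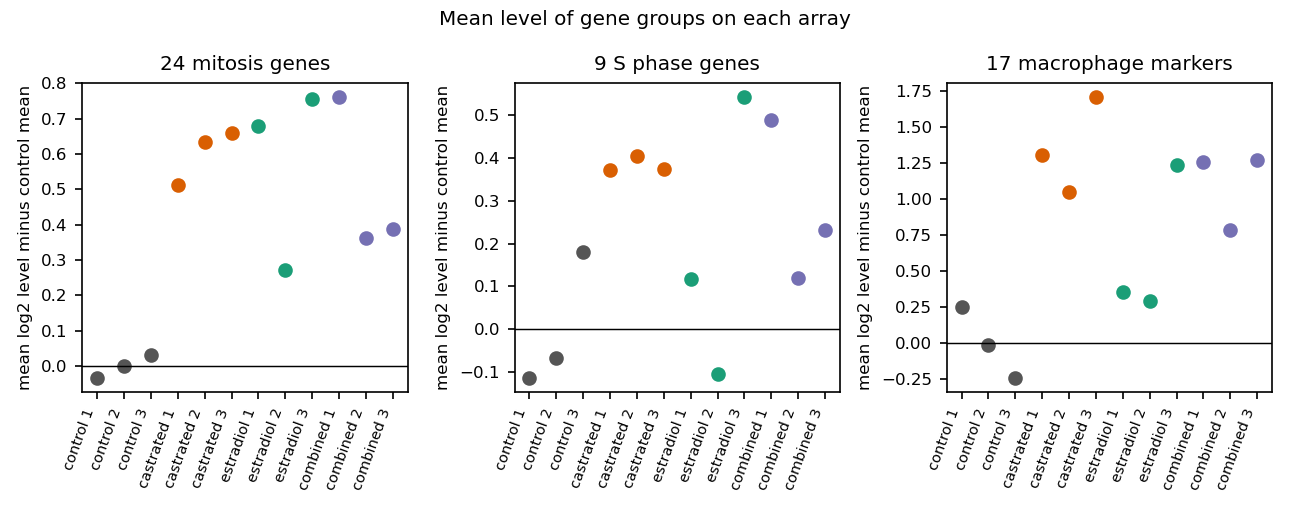
Mean log2 level minus the control mean (y axis, scaled per panel) on each of the 12 arrays (x axis) for the 24 mitosis genes, the 9 S phase genes and 17 macrophage markers. All 9 treated arrays lie above the 3 controls in the mitosis and macrophage panels, and estradiol 2 is the lowest treated array in each panel.

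Macrophage markers were higher on the treated arrays too. Of 17 measured markers, 12 rose after castration, 3 after estradiol and 8 after both, where 3.17%, 2.51% and 2.12% of all genes rose, and none fell. The counts were 15, 10 and 14 without estradiol 1 and 2, where 10.0%, 2.78% and 7.61% of all genes rose. Their mean lay above the control mean by 1.05 to 1.71 on the castrated arrays, 0.29 to 1.23 on the estradiol arrays and 0.79 to 1.27 on the combined arrays, while the controls spanned -0.24 to 0.25. Within the estradiol group the order of the arrays was the same for both lists, with array 2 lowest and array 3 highest. Estradiol 1, 2 and 3 were at 0.36, 0.29 and 1.23 for macrophage markers and at 0.68, 0.27 and 0.76 for mitosis genes. Within the castrated and combined groups the order differed. Combined 3 was at 1.27 and 0.39, and castrated 2, the lowest of its group for macrophage markers at 1.05, was above castrated 1 for mitosis genes. The summed linear level of the list, expressed as log2, was 11.04 to 11.45 in controls and 12.40 to 12.97 in castrated rats. Of 10 luminal epithelial markers, 5 rose and 1, Pbsn, fell after castration. After estradiol 3 of them rose and 2, Pbsn and Hoxb13, fell, and after both treatments 6 rose and 1, Pbsn, fell. The falls after estradiol are calls of the full fit only. On estradiol 3 Pbsn was at 9.71, against 10.50 to 11.63 in controls. The median of the luminal markers after estradiol was 0.47 in the full fit and 0.65 without estradiol 1 and 2. Of endothelial (10), smooth muscle (8), fibroblast (8), basal epithelial (6) and B cell (3) markers, 0 passed after castration by limma (0, 0, 1, 1 and 0 had an unadjusted p under 0.05), and of 9 T cell markers 1 rose. Of the T cell markers, 2 rose after estradiol and 1 after both. After estradiol 2 endothelial, 1 smooth muscle and 1 fibroblast marker fell, where 5.48% of all genes fell, and none of these markers passed without estradiol 1 and 2 (2.27% of all genes fell). Pbsn itself varied within the estradiol group, at 6.28, 4.82 and 9.71, so that array 3, where the means of the mitosis and S phase genes were the highest of the group, kept the most of it. The part of cell composition in the rise of the mitosis genes was not tested.

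Other cell cycle genes were taken from further lists. Of 51 further mitosis genes, 6 rose and 1 fell after castration, 12 rose and 1 fell after estradiol, and 2 rose and 1 fell after both, with medians of 0.37, 0.44 and 0.32. The shares of all genes that rose were 3.17%, 2.51% and 2.12%, and those that fell 2.36%, 5.48% and 2.21%. Leaving out estradiol 1 and 2, which leaves 1 estradiol array, gave medians of 0.37, 0.44 and 0.32 as well. Counts of genes that passed are not compared between treatments in that fit, since the castrated and combined groups still held 3 arrays each. Nor do the 6, 12 and 2 rises of the full fit rank the treatments, because that fit holds the 2 unusual estradiol arrays. Stmn1, a protein that destabilises microtubules, was at 6.63, 6.52 and 6.84 in controls and 7.68, 7.70 and 8.03 in castrated rats. It rose by 1.14, 0.95 and 1.04 in the 3 comparisons. Mad2l1, the checkpoint protein Mad2, rose in all 3 as well (0.69, 0.80 and 0.79). Fam83d, a spindle protein, went the other way in all 3 (-1.0, -0.64 and -1.02).

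Among 47 further S phase genes 3, 3 and 1 rose and none fell, and the 1 of 47 after both treatments is near the 2.12% of all genes that rose. With estradiol 1 and 2 left out the counts were 16 up and 2 down after castration, 7 up after estradiol, and 13 up and 2 down after both, against the shares of all genes given for that fit. Lig1, the ligase that joins Okazaki fragments, was at 6.26, 6.39 and 6.55 in controls and 7.86, 7.68 and 7.62 in castrated rats, with no overlap. It rose by 1.32 after castration, 0.89 after estradiol and 1.14 after both. Pola1, the catalytic subunit of DNA polymerase alpha, rose after castration (0.79), Rpa1, a subunit of the single-strand binding protein, after castration and estradiol (0.79 and 0.68), and Brca1 after estradiol (0.66). The Brca1 call was lost without estradiol 1 and 2 (adjusted p = 0.122).

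Of 19 further genes of G1 entry and its control 1, 1 and 1 rose and 2, 3 and 2 fell in the 3 comparisons, small counts beside 3.17%, 2.51% and 2.12% of all genes up and 2.36%, 5.48% and 2.21% down. The medians of these 19 genes were -0.002, -0.21 and 0.05 in the full fit, and -0.002, 0.05 and 0.05 without estradiol 1 and 2. Cks1b, the small partner of cyclin-dependent kinases that helps to degrade p27, was at 10.27, 10.26 and 9.90 in controls, 8.51, 8.40 and 8.64 in castrated, 8.85, 8.83 and 8.90 in estradiol-treated, and 8.50, 8.71 and 8.51 in combined-treated rats. It fell by 1.63, 1.28 and 1.57, with adjusted p-values of 2.47e-05, 0.000248 and 3.34e-05. Tfdp2, a dimerisation partner of E2F factors, fell by 0.92, 1.12 and 1.23, the call after estradiol being lost without estradiol 1 and 2 (adjusted p = 0.0756). Ccng2, cyclin G2, which is associated with exit from the cycle, rose by 1.99, 0.99 and 1.41, from 6.18, 5.95 and 6.29 in controls to 8.12, 8.29 and 7.96 in castrated rats. Of 11 further inhibitors Cdkn2c, the p18 inhibitor of Cdk4 and Cdk6, rose in all 3 comparisons (0.99, 0.75 and 0.85). Its call after estradiol was lost without estradiol 1 and 2 (adjusted p = 0.0589) and with only the compared arrays, and held in 18 of 22 alternatives.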

How the data were processed

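Per the labels' protocols, biotinylated cDNA from ventral prostate RNA was hybridized to Affymetrix arrays, 1 per sample, and Affymetrix Expression Console is named in the submitters' processing notes. The deposited values, 1 per probe set and array, were taken as log2 levels from their range. Their normalization and log base are not stated in the labels. Of 29214 probe sets, 15310 were paired with 1 symbol, 323 with several and 13581 with none. Only the first kind was used, which gave 14506 genes.

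The lmFit and eBayes functions of limma (version 3.58.1, R version 4.3.3) were run over all 12 arrays and all genes, with 1 mean per group, 8 residual and 5.29 prior degrees of freedom. Tests were 2-sided, with p-values adjusted by Benjamini and Hochberg over all genes and a threshold of 0.05. Genes said to rise or fall passed this threshold. All adjusted p-values come from limma. The genes and lists were chosen with earlier results of these data known. Array values were given for members that passed a comparison, at most the 6 with the smallest F-test p per phase, and for the inhibitors. Those of Ccna2, Bub1, Ube2c, Tyms, Mcm2 and Mcm7 were added after their values were seen, as were differences of members that did not pass. From the further lists at most 4 genes that passed were named per comparison. Alternatives were median centring, quantile normalization, leaving out dim genes, other choices of probe set, fits on the compared arrays only, array quality weights, a prior variance that follows the level, a replicate block, and leaving out each array or both unusual ones. The procedure was tested on simulated data. Replicate numbers did not pair the arrays: deviations from group means correlated by -0.16 to 0.28 in same-numbered and -0.25 to 0.28 in other pairs. No 2 arrays were duplicates (correlations up to 0.994). Figures used matplotlib 3.10.9 in Python 3.11.15.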

Additional observations from a re-analysis of the deposited data

Results flagged for a closer look

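Of the listed cell cycle genes and the further cell cycle lists, 4 genes passed the test of whether the effect of estradiol differed between castrated and intact rats (limma, adjusted over all genes). They were 1 of the 45 listed genes, 2 of 19 further genes of G1 entry and its control and 1 of 47 further S phase genes. Of 51 further mitosis genes and 11 further inhibitors 0 passed. The share of all genes that passed was 1.10%. Ccnd1, cyclin D1, had a difference between the effects of estradiol of 1.45 (adjusted p = 0.0144), from -0.99 in intact to 0.46 in castrated rats. Cks1b had 1.33 (adjusted p = 0.00795), from -1.28 to 0.05. Ccng2 had -1.57 (adjusted p = 0.00428), from 0.99 to -0.58. Lig1 had -1.07 (adjusted p = 0.0346), from 0.89 to -0.18. The calls of Ccng2 and Cks1b held in all 21 alternatives, that of Ccnd1 in 18 and that of Lig1 in 10 of 21.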

How the results depend on the processing

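No difference that passed changed sign under any alternative run. Of the 35, 33 and 42 member differences that did not pass for castrated, estradiol and combined against control, 7, 14 and 7 changed sign under at least 1 alternative, the largest of them 0.15, 0.44 and 0.12 in size in the full fit. With 10, 12 and 3 of the 45 genes called for castrated, estradiol and combined against control, fitting only the arrays compared gave 20, 1 and 20, and array quality weights gave 27, 4 and 29. Without estradiol 1 and 2 together the counts were 21, 12 and 19. Quantile normalization gave 4 for estradiol. For the interaction (1 gene) array quality weights gave 3 and the fit without estradiol 1 and 2 gave 8. For the F test (7 genes) centring gave 3, quantile normalization 2, all probe sets 3, array quality weights 28, and the fit without estradiol 1 and 2 gave 18. Fitting only the arrays compared gives no value for the interaction or the F test. Leaving out 1 array gave 3 to 17 genes for castrated, 1 to 17 for estradiol and 0 to 9 for combined against control. It gave 0 to 0 for combined minus castrated, 0 to 4 for combined minus estradiol, 0 to 4 for estradiol minus castrated, 0 to 6 for the interaction and 1 to 18 for the F test. The share of all genes that passed also moved with the setting and is not given beside each count here, so these counts do not describe the listed genes alone. The causes were not tested.

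The arrays share only a replicate number. With the number as a replicate block the counts were 11, 12 and 4 against control, 0 in each comparison among treated groups, 1 for the interaction and 8 for the F test, and 9 of the 10 genes called after castration passed with the block.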
